A study of Mus musculus with 12 samples.

Results

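The unfolded protein response is the set of pathways by which a cell matches the folding capacity of its endoplasmic reticulum (ER) to its load of membrane and secreted proteins. The data described here are the transcripts of 6 of its genes, Xbp1, Atf4, Ddit3, Hspa5, Herpud1 and Trib3, out of 19938 genes with a value. They were taken by gene symbol from the array annotation. Each was read by 1 probe set, the group of array probes that is summarised to 1 value for a gene.

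Cells were prepared from olfactory mucosa dissected from 18 mice of both sexes, 7 to 12 weeks old, that carried S100a5-tauGFP, in which a fluorescent protein is tied to S100a5, a gene that olfactory sensory neurons switch on when active. Mice sat singly in chambers under clean air flowing at 3.1 L per minute for 40 hours, and from 26 hours on were given 10 seconds of either a citrus accord (5% in the series title, composition not given in the sources used here) or filtered air as the vehicle every 20 minutes. The dissociated mucosa was pooled from 3 mice and sorted into GFP+ and GFP- cells, and each fraction went on 1 Mouse Gene 1.0 ST array. The 4 groups, odor GFP+, odor GFP-, vehicle GFP+ and vehicle GFP-, therefore hold 3 arrays each from 6 pools. Pools carry the numbers 2, 3 and 4 for odor and 1, 2 and 4 for vehicle, and all mice carried the reporter. GFP- cells are whatever lacked the reporter, so they hold other cell types and sensory neurons without detected GFP.

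Signals in the response run along 3 branches. IRE1 (gene Ern1) splices Xbp1 mRNA so that it encodes an active transcription factor. PERK (Eif2ak3) phosphorylates the initiation factor eIF2alpha, which slows translation in general but favours that of ATF4. ATF6 is cut in the Golgi to release a transcription factor. Downstream lie chaperones such as Hspa5 (BiP), degradation factors such as Herpud1, the transcription factor Ddit3 (CHOP) and the pseudokinase Trib3, which restrains ATF4 and CHOP. In olfactory sensory neurons the PERK branch is also known for its part in odorant receptor choice, where receptor protein leads to translation of ATF5 and so to a stable choice. An array reads transcript abundance only, not splicing of Xbp1, phosphorylation or translation.

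The DNA just before the gene starts carries the letters by which these branches are usually recognised, and it is shown for the 2 members whose sequence held such a motif and for the 2 with the largest difference between fractions. Sequences are from RefSeq on build GRCm38.p6, 150 bases upstream of the annotated start, 5′ to 3′ on the gene's strand. They come from chr2:34771940-34772089 (plus strand) for Hspa5, chr8:94386279-94386428 (plus) for Herpud1, chr2:152344061-152344210 (minus) for Trib3 and chr11:5520491-5520640 (plus) for Xbp1. Capitals in Hspa5 mark the ER stress response element. Capitals in Herpud1 mark, in order, the core of a CEBP-ATF response element read on the opposite strand and ER stress response element II.
Hspa5: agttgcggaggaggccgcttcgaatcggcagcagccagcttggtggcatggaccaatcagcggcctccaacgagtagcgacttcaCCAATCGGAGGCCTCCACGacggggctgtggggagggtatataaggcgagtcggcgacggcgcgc
Herpud1: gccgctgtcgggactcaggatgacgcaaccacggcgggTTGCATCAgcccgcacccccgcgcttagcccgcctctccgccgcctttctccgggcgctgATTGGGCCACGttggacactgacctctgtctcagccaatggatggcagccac
Trib3: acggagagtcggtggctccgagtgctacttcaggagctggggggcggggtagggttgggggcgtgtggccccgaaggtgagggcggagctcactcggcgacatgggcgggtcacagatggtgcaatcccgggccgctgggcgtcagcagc
Xbp1: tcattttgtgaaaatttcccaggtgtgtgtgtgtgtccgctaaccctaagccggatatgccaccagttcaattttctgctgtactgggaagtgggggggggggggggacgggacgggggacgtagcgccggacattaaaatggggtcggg

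Searched on both strands of 250 bases upstream, the ER stress response element (CCAAT, then 9 bases of any kind, then CCACG), bound by ATF6 and XBP1 together with NF-Y, occurred in 37 of 32851 promoters (0.113%) and among the 6 genes in Hspa5, 65 to 47 bases before the start. The shorter element II (ATTGG, 1 base of any kind, then CCACG) occurred in 10 promoters (0.0304%) and among the 6 in Herpud1, 52 to 42 bases before the start. Herpud1 also held the core TGATGCAA of the CEBP-ATF response element, the kind of site bound by ATF4 and CHOP, 112 to 105 bases before its start. That core was found in 260 promoters (0.791%). The core TGACGTGG of the unfolded protein response element was in 185 promoters (0.563%) and in 0 of the 6. A plain CCAAT box, which both ER stress elements contain on one strand or the other, was in 33.8% of promoters and in 4 of the 6: Hspa5, Herpud1, Atf4 and Ddit3. A match describes letters in this window and says nothing of use, and the same holds for the lack of one in Trib3 and Xbp1.

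The arrays separated by sorted fraction. Arrays of 1 group correlated with r of 0.984 to 0.994 and arrays of different fractions with 0.929 to 0.960. Omp, the marker of mature olfactory neurons, was higher in GFP+ cells by 0.31 in vehicle and 0.33 in odor mice (log2; limma, adjusted p 0.0107 and 0.00844), and lay between 13.04 and 13.29 on the GFP- arrays, so its transcript was present in both fractions. S100a5 itself differed by 0.19 (adjusted p 0.0887) in vehicle and was higher by 0.31 (adjusted p 0.0123) in odor mice. Activity-dependent neuronal genes, a list of 9 with S100a5, went both ways: 5 higher and 3 lower in vehicle, 6 higher and 3 lower in odor mice. Lower in GFP+ cells in all 6 pools were its genes Fos, by -2.45 to -3.40, and Egr1, by -2.08 to -2.86. Of marker genes for mature neurons 9 of 10 were higher in GFP+ cells in both treatments. All 10 for macrophages, all 11 for neutrophils, all 5 for sustentacular cells and 7 of 9 in vehicle and 8 of 9 in odor mice for plasma and B cells were lower. No marker was listed at 0, and the log2 values carry no detection call.

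**Figure D1:**
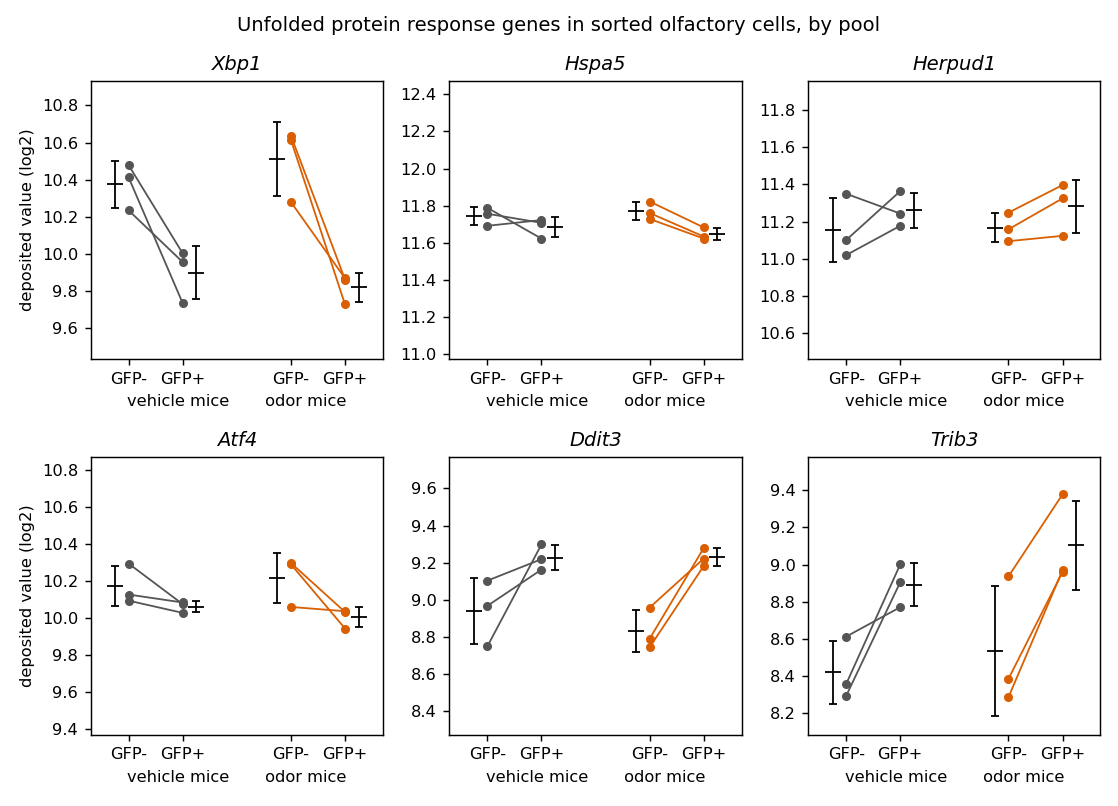
Deposited log2 value of each gene (vertical axes, all spanning the same range) in GFP- and GFP+ cells, lines joining the 2 fractions of a pool, vehicle pools grey and odor pools orange, with group mean and SD (n = 3) as black bars. Lines fall in all 6 pools for Xbp1 and Atf4 and rise in all 6 for Ddit3 and Trib3, while vehicle and odor pools overlap in every panel.

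The comparison of GFP+ with GFP- cells within pools asks how the response genes differ between cells with and without the activity reporter. Xbp1 was lower in GFP+ cells, Trib3 and Ddit3 were higher, and Atf4, Hspa5 and Herpud1 did not pass the test, in vehicle and in odor mice alike. In each treatment 3 of the 6 genes were thus called at an adjusted p under 0.05 in limma with pool as a block. Such calls were common: 47.7% of all genes in vehicle mice (29.7% higher and 18.1% lower) and 51.4% in odor mice (32.9% higher and 18.5% lower). The count of 3 of 6 is near that background. Without adjustment 3 of the 6 in vehicle and 4 in odor mice were under 0.05, beside 52.7% and 58% of all genes.

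Xbp1 encodes the transcription factor of the IRE1 branch, known to drive the secretory programme of plasma cells among others. Its GFP+ values were 9.87, 9.73 and 9.86 in odor pools 2, 3 and 4 and 9.95, 10.00 and 9.73 in vehicle pools 1, 2 and 4 (log2). Its GFP- values were 10.28, 10.61 and 10.64 in the odor pools and 10.23, 10.48 and 10.41 in the vehicle pools. All 6 GFP- arrays lay above all 6 GFP+ arrays, as happened in that direction for 17.2% of genes. The within-pool difference was -0.48 (SE 0.11) in vehicle mice, a GFP+ level 0.718 times the GFP- level (95% interval 0.603 to 0.855), with an adjusted p of 0.00618. In odor mice it was -0.69 (SE 0.11), or 0.619 times (0.520 to 0.737), with an adjusted p of 0.00083.

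The order of Xbp1 group means ran from 10.51 ± 0.20 in odor GFP- through 10.37 ± 0.13 in vehicle GFP- and 9.90 ± 0.14 in vehicle GFP+ to 9.82 ± 0.08 in odor GFP+ cells (SD, n = 3). Only the step between the fractions passed a test. In these mixed samples fewer cells of a type and less RNA per cell cannot be told apart. Most of the 9 measured plasma and B cell genes moved with Xbp1, 7 of them lower in vehicle and 8 in odor mice, and their mean lay between 6.52 and 6.69 on GFP+ arrays and between 8.82 and 9.33 on GFP- arrays. Among them Ms4a1, the B cell antigen CD20, differed by -4.76 in vehicle and -4.57 in odor mice, and Jchain, the joining chain of antibodies, by -2.57 and -3.56. Irf4 and Pou2af1 of the same list differed within pools by -2.40 to -3.61 and by -2.65 to -3.41. Smaller differences were those of Mzb1 (-0.26 and -0.49) and Sdc1 (-0.18, adjusted p 0.104 in limma, and -0.37). Tnfrsf17 differed by 0.03 and 0.08 (adjusted p 0.773 and 0.370), above 0 in 4 of 6 pools. Macrophage genes lay between 7.36 and 7.76 against 9.91 and 10.4, and neutrophil genes between 7.12 and 8.29 against 11.5 and 12.1. Dividing and globose basal cell genes lay between 6.03 and 6.24 against 7.81 and 8.32, and Bowman's gland genes between 8.32 and 8.53 against 9.53 and 9.92. With group means taken off, r with Xbp1 was 0.72 for erythroid, 0.71 for macrophage, 0.70 for dividing and globose basal and 0.69 for T and NK cell genes. It was 0.65 for plasma and B cell, 0.29 for sustentacular, 0.19 for neutrophil and -0.16 for Bowman's gland genes. The part of these cells and of plasma cells in the Xbp1 difference was not tested. Leaving out vehicle pool 4 raised the vehicle adjusted p of Xbp1 to 0.0529 (difference -0.38).

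Atf4, the transcription factor whose translation the PERK branch favours, gave GFP+ values of 10.04, 10.03 and 9.94 in odor pools and 10.03, 10.07 and 10.08 in vehicle pools. Its GFP- values were 10.06, 10.30 and 10.29 in odor pools and 10.09, 10.29 and 10.13 in vehicle pools. GFP- cells were the higher fraction in all 6 pools, but the 2 fractions overlapped. By comparison, 56.4% of all genes kept 1 direction across the 6 pools, 36.1% upward and 20.2% downward in GFP+ cells. The difference was -0.11 (SE 0.09, adjusted p 0.351 in limma) in vehicle and -0.21 (SE 0.09, adjusted p 0.0687) in odor mice. The odor value passed without the pool block (adjusted p 0.0473), after cyclic loess (0.00833) or quantile normalization applied once more (0.0335), with array weights (0.0470) and without odor pool 2 (0.0304, difference -0.31). The vehicle value passed with cyclic loess (0.0250), which moved it to -0.29. Group means were 10.22 ± 0.13 in odor GFP-, 10.17 ± 0.11 in vehicle GFP-, 10.06 ± 0.03 in vehicle GFP+ and 10.01 ± 0.05 in odor GFP+ cells (SD, n = 3), and no neighbours in that order passed a test.

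Ddit3 encodes CHOP, a transcription factor induced through ATF4 and known for promoting cell death under lasting stress. GFP+ cells gave 9.22, 9.18 and 9.28 in odor pools and 9.22, 9.16 and 9.30 in vehicle pools, and GFP- cells gave 8.96, 8.74 and 8.79 in odor and 9.10, 8.97 and 8.75 in vehicle pools. Every GFP+ array lay above every GFP- array, as for 27.6% of genes. GFP+ values of Ddit3 spread little (SD 0.05 over 6 arrays) while those of GFP- cells spread more (SD 0.15). The level in GFP+ cells was 1.22 times that in GFP- cells in vehicle mice (95% interval 1.05 to 1.42; log2 difference 0.29, SE 0.10, adjusted p 0.0383 in limma). In odor mice it was 1.32 times (1.13 to 1.54; log2 difference 0.40, adjusted p 0.00849).

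The Ddit3 call depended on the processing. In vehicle mice the adjusted p rose to 0.259 without vehicle pool 4, where the difference fell to 0.16, and to 0.0694 and 0.0553 without vehicle pool 2 and odor pool 3. It was 0.456 with cyclic loess (difference 0.09), 0.109 after repeated quantile normalization, 0.0576 with array weights and 0.0548 with the vehicle pools fitted alone. In odor mice it passed except with cyclic loess (0.0754, difference 0.21) and without odor pool 4 (0.0568). The direction of Ddit3 stayed upward under all 4 scalings in both treatments. Its group means were 9.23 ± 0.05 in odor GFP+, 9.23 ± 0.07 in vehicle GFP+, 8.94 ± 0.18 in vehicle GFP- and 8.83 ± 0.11 in odor GFP- cells (SD, n = 3), the step between fractions being the one that passed.

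Hspa5 encodes BiP, the main chaperone of the ER lumen, which also holds the 3 sensors inactive in the absence of stress. Its GFP+ values were 11.63, 11.68 and 11.62 in odor pools and 11.62, 11.71 and 11.72 in vehicle pools, and its GFP- values were 11.76, 11.82 and 11.73 in odor and 11.79, 11.76 and 11.69 in vehicle pools. The fractions overlapped, and 1 of 6 pools had the higher value in GFP+ cells. The differences were -0.06 (SE 0.07, 95% interval -0.23 to 0.11, adjusted p 0.556 in limma) in vehicle and -0.12 (SE 0.07, interval -0.29 to 0.04, adjusted p 0.183) in odor mice. Its direction depended on the scaling: above 0 with a second quantile normalization in both treatments and with median centring in vehicle mice, and lower at an adjusted p of 0.0213 with cyclic loess in odor mice. Group means ran from 11.77 ± 0.05 in odor GFP- through 11.74 ± 0.05 in vehicle GFP- and 11.68 ± 0.05 in vehicle GFP+ to 11.65 ± 0.03 in odor GFP+ cells (SD, n = 3), with no neighbours that passed a test.

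Herpud1 encodes a membrane protein of the ER that takes part in degrading misfolded proteins. In GFP+ cells it read 11.40, 11.33 and 11.12 in odor pools and 11.36, 11.24 and 11.18 in vehicle pools. In GFP- cells it read 11.25, 11.16 and 11.09 in odor pools and 11.10, 11.35 and 11.02 in vehicle pools. It was higher in GFP+ cells in 5 of 6 pools, vehicle pool 2 being the exception, and the fractions overlapped. The differences of 0.10 (SE 0.09, adjusted p 0.384 in limma) in vehicle and 0.11 (SE 0.09, adjusted p 0.297) in odor mice did not pass. Cyclic loess turned both to -0.03 and -0.01, and a second quantile normalization brought the odor difference past the threshold (0.23, adjusted p 0.0480). Group means were 11.28 ± 0.14 in odor GFP+, 11.26 ± 0.09 in vehicle GFP+, 11.17 ± 0.08 in odor GFP- and 11.16 ± 0.17 in vehicle GFP- cells (SD, n = 3). The steps within a fraction did not pass a test, and that from vehicle GFP+ to odor GFP- cells was not tested.

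Trib3 encodes a pseudokinase induced by ATF4 and CHOP that dampens both. Its GFP+ values were 9.38, 8.97 and 8.96 in odor pools and 8.90, 8.77 and 9.001 in vehicle pools, and its GFP- values were 8.94, 8.28 and 8.38 in odor and 8.29, 8.61 and 8.36 in vehicle pools. Odor pool 2 had the highest value of each fraction. Because its GFP- array reached 8.94, the fractions overlapped over all pools, although GFP+ cells were higher within all 6. The level in GFP+ cells was 1.39 times that in GFP- cells in vehicle mice (95% interval 1.17 to 1.64; log2 difference 0.47, SE 0.11, adjusted p 0.00527 in limma) and 1.48 times in odor mice (1.25 to 1.75; log2 difference 0.57, SE 0.11, adjusted p 0.00193). Group means ran from 9.10 ± 0.24 in odor GFP+ through 8.89 ± 0.12 in vehicle GFP+ and 8.53 ± 0.35 in odor GFP- to 8.42 ± 0.17 in vehicle GFP- cells (SD, n = 3), and neighbours of the same fraction did not differ beyond their spread.

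The Trib3 call held in both treatments under each of the 14 alternatives run for it. Mature neuron marker genes moved with Trib3 and Ddit3: their mean lay between 12.78 and 12.84 on GFP+ arrays and between 12.18 and 12.49 on GFP- arrays. The GFP- array of odor pool 2 had both the highest GFP- neuron mean (12.49) and the highest GFP- value of Trib3. The GFP- arrays of vehicle pools 1 and 2 came next with nearly equal neuron means (12.433 and 12.428). Their Trib3 values were 8.29 and 8.61. Among GFP+ arrays, whose neuron means spanned only 12.78 to 12.84, that of vehicle pool 2 had the highest mean and the lowest Trib3 (8.77). Means of the 7 immature neuron genes overlapped between fractions, at 9.60 to 9.73 on GFP+ and 9.59 to 9.85 on GFP- arrays. With group means taken off, Trib3 had its highest r of the 17 marker lists with immature neurons (0.80, and 0.55 with mature neurons). Ddit3 had its highest with respiratory ciliated cells (0.80, and 0.77 with mature neurons) and its lowest with T and NK cells (-0.90). The part of neuron content and of other cells in the Trib3 and Ddit3 differences was not tested. The scaling set the baseline: the median difference over all genes was 0.06 in vehicle and 0.13 in odor mice as deposited, 0.01 and 0.02 with cyclic loess, and 0.16 and 0.18 with arrays centred on their medians. Relative to the deposited median, Xbp1 was at -0.53 and -0.83, Trib3 at 0.42 and 0.43, and Ddit3 at 0.23 and 0.26 in vehicle and odor mice. Xbp1 and Trib3 passed in both treatments under all 4 scalings, as did 14.3% of genes downward and 17.3% upward.

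The comparison of odor with vehicle mice asks whether the citrus accord changed these transcripts. None of the 6 differed in either fraction. In GFP+ cells the differences were 0.21 (SE 0.17) for Trib3, -0.08 (SE 0.11) for Xbp1, -0.06 (SE 0.08) for Atf4, -0.04 (SE 0.06) for Hspa5, 0.02 (SE 0.10) for Herpud1 and 0.0016 (SE 0.09) for Ddit3, each with an adjusted p of 1.00 in limma. Of all genes 0.00502% passed there. Unadjusted p-values under 0.05 were held by 0 of the 6 and by 1.3% of all genes.

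Among GFP- cells Xbp1 differed by 0.14 (SE 0.11, adjusted p 0.807 in limma), Trib3 by 0.12 (SE 0.17), Ddit3 by -0.11 (SE 0.09), Atf4 by 0.04 (SE 0.08), Hspa5 by 0.02 (SE 0.06) and Herpud1 by 0.01 (SE 0.10). The adjusted p-values of the 6 ran from 0.807 to 0.984, and 0% of genes passed. Without adjustment 0 of the 6 and 6.53% of all genes were under 0.05. The widest 95% interval was that of Trib3, from -0.15 to 0.57 in GFP+ and from -0.24 to 0.48 in GFP- cells, and the narrowest was that of Hspa5, from -0.18 to 0.10 and from -0.11 to 0.16. Odor and vehicle arrays overlapped for all 6 genes in both fractions, where 7.93% of genes in GFP+ and 7.44% in GFP- cells did not overlap. Odor pool 2 carried the Trib3 values: without its array the difference was 0.07 in GFP+ and -0.09 in GFP- cells.

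The interaction asks whether the difference between fractions itself depended on odor. It was -0.21 (SE 0.16, adjusted p 0.917 in limma) for Xbp1, 0.11 (SE 0.14) for Ddit3, 0.10 (SE 0.15) for Trib3, -0.10 (SE 0.12) for Atf4, -0.06 (SE 0.10) for Hspa5 and 0.01 (SE 0.13) for Herpud1. The other 5 adjusted p-values lay between 0.942 and 0.994. No gene passed (0%), and unadjusted p-values under 0.05 were held by 0 of the 6 and by 4.67% of all genes. The larger Xbp1 difference in odor mice (-0.69 against -0.48) was thus not separable from the spread of pools, whose single values ran from -0.28 to -0.89.

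**Figure D2:**
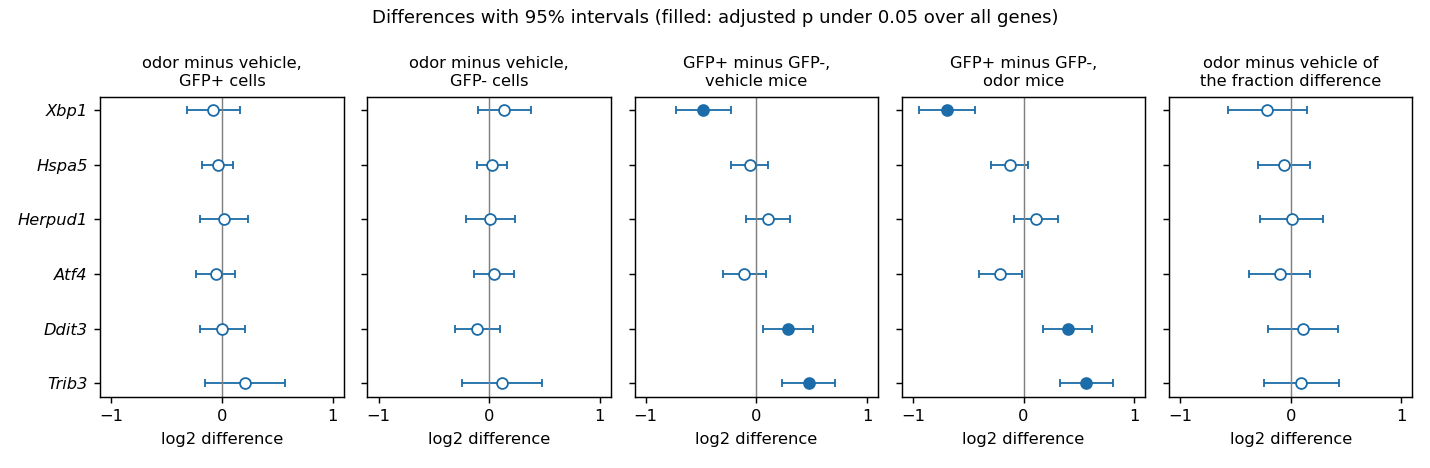
Log2 differences of the 6 genes with 95% intervals in the 5 comparisons, filled where the adjusted p over all genes was under 0.05. Filled points occur in the 2 panels of GFP+ against GFP- cells, for Xbp1 on the lower side (-0.48 and -0.69) and for Ddit3 and Trib3 on the higher side, and in none of the 3 panels that involve odor.

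Around these 6, 94 of 100 other genes of the response on 5 lists had a value. In GFP+ cells 32 of them were higher and 21 lower for vehicle, and 25 higher and 24 lower for odor, with medians of 0.10 and 0.10 against 0.06 and 0.13 over all genes. The direction of this balance rested on the scaling, as did that over all genes. With cyclic loess it was 18 higher and 33 lower in both treatments, a share of 35.3% higher among called genes against 60.4% and 51.0% as deposited, and with median centring it was 45 and 12 (78.9%) in vehicle and 32 and 20 (61.5%) in odor mice. Over all genes the share higher among those called was 62.2% in vehicle and 64.0% in odor mice as deposited, 49.9% and 46.3% with cyclic loess, and 72.4% and 70.4% with median centring. The counts of the single lists below stand beside 29.7% higher and 18.1% lower among all genes for vehicle, and 32.9% higher and 18.5% lower for odor. Called under all 4 scalings in both treatments were 16 upward (17.0%) and 12 downward (12.8%), beside 17.3% and 14.3% of all genes. Odor against vehicle and the interaction gave 0 calls among the 94. Unadjusted p-values under 0.05 were held by 0 in GFP+ cells, 3 in GFP- cells (Chac1, Sesn2 and Psat1) and 2 in the interaction (Eif2ak2 and Chac1). Over all genes the shares under 0.05 were 1.3%, 6.53% and 4.67%.

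Of the 9 measured sensors and eIF2alpha kinases, GFP+ cells had 2 higher and 2 lower for vehicle, 2 higher and 4 lower for odor, with medians of -0.12 and -0.24. Atf6 and its relative Atf6b were higher, Atf6 by 0.28 and 0.21 (SE 0.08; limma, adjusted p 0.0150 and 0.0451) and Atf6b by 0.37 and 0.35 (adjusted p 0.00528 and 0.00699) in vehicle and odor mice. Lower were the kinases Eif2ak4 (GCN2, which senses amino acid lack) by -0.42 and -0.64 and Eif2ak2 (PKR, which senses double-stranded RNA) by -0.23 and -0.60. The vehicle call of Eif2ak2 was lost in 8 of 14 alternatives, with an adjusted p of up to 0.245 and a difference of -0.12 with median centring, 0.101 without the pool block, and 0.0915 to 0.185 without vehicle pools 1 or 2; it was 0.0632 without vehicle pool 4 and 0.0514 without odor pool 3. That of Atf6 was lost with cyclic loess (difference 0.10, adjusted p 0.292) and without vehicle pools 2 (0.0957) or 4 (0.0561), and that of Atf6b with cyclic loess in vehicle (0.17, adjusted p 0.0676) and odor mice (0.17, adjusted p 0.0626). Over 4 scalings and 2 treatments Atf6 was called in 5 of 8 values, which ran from 0.06 to 0.38. Eif2ak3, the PERK gene, differed by -0.12 (adjusted p 0.344) and -0.24 (adjusted p 0.0608), and Ern1, the IRE1 gene, by -0.14 (adjusted p 0.157) and -0.30 (adjusted p 0.00793). For Ern1 no difference between the treatments was found (interaction -0.16, SE 0.10, adjusted p 0.917).

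Among 24 chaperones and folding enzymes, 6 went up and 4 down for vehicle, 4 up and 4 down for odor, with medians of 0.08 and 0.10. The proline isomerase Fkbp2 was higher by 0.55 and 0.53 and the BiP co-chaperone Dnajb11 by 0.43 and 0.40. Another co-chaperone of BiP, Dnajb9, was higher by 0.35 and 0.32. Called lower in both treatments were P4hb, a protein disulphide isomerase, by -0.41 and -0.43, its relative Pdia6 by -0.29 and -0.31, and the oxidases Ero1b by -0.34 and -0.38 and Ero1a by -0.34 and -0.33. Other genes of the isomerase family did not share that direction. Pdia5 was higher (0.34 and 0.40), as was Txndc11 in vehicle mice (0.30, and 0.19 with an adjusted p of 0.0754 in odor mice), and Dnajc10 (0.19 and 0.16), Txndc5 (0.11 and 0.03), Pdia3 (0.05 and -0.03) and Pdia4 (-0.11 and -0.21) did not pass. The call of Pdia5 in odor mice was lost without odor pool 4 (adjusted p 0.0681). Hyou1, an exchange factor for BiP, was higher in vehicle mice (0.43, adjusted p 0.00438 in limma) and did not pass in odor mice (0.21, adjusted p 0.0913). Hsp90b1, the ER form of HSP90, differed by 0.12 and 0.11 (adjusted p 0.278 and 0.30).

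ER-associated degradation had 6 of 17 genes higher and 4 lower for vehicle, 6 higher and 5 lower for odor, with medians of 0.17 and 0.07. Edem1, which takes misfolded glycoproteins out of the folding cycle and is a textbook target of XBP1, showed the largest difference of that list. Its values lay between 7.98 and 8.21 on GFP+ arrays and between 9.08 and 9.54 on GFP- arrays, with no overlap. GFP+ levels were 0.483 times those of GFP- cells in vehicle mice (95% interval 0.427 to 0.546, adjusted p 8.9e-06 in limma) and 0.418 times in odor mice (0.370 to 0.472, adjusted p 2.4e-06). Derl3 (-0.36 and -0.30), the ubiquitin ligase Syvn1 (-0.28 and -0.28) and the ubiquitin-conjugating enzyme Ube2g2 (-0.30 and -0.41) were lower too. Higher were the lectin Erlec1 by 0.67 and 0.58, Selenos by 0.54 and 0.52, Derl2 by 0.43 and 0.41, the ATPase Vcp by 0.37 and 0.35, Ubxn4 by 0.37 and 0.35, and Faf2 by 0.38 and 0.24. Derl2 lost its vehicle call with cyclic loess (0.25, adjusted p 0.0633) and without vehicle pools 1 (0.05004) or 4 (0.0705). The degradation genes therefore went both ways, Herpud1 lying between them.

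Genes of protein entry into the ER and transport out of it were listed as targets of XBP1, like Edem1. Of 20 measured, 9 went up and 4 down for vehicle, 5 up and 4 down for odor, with medians of 0.16 and 0.10, so called genes of this list went both ways. Sec24d, a coat protein of vesicles leaving the ER, was higher by 0.83 and 0.80, and its coat partner Sec23b by 0.51 and 0.47. Signal peptidase genes on the list split: Spcs1 (0.49 and 0.54), Spcs2 (0.43 and 0.49) and Spcs3 (0.31 and 0.37) were higher. Sec11c, a catalytic subunit, was lower by -0.75 and -0.90 (limma, adjusted p 0.000129 and 3.9e-05). The cargo receptor Lman1 (-0.31 and -0.55), the retrieval receptor Kdelr1 (-0.35 and -0.44) and the translocon subunit Sec61b (-0.32 and -0.27) were lower as well. Of the 9 plasma and B cell genes, 7 in vehicle and 8 in odor mice were lower like Xbp1, Edem1, Sec11c and Lman1, while Tnfrsf17 was not (list medians -2.77 and -3.01). Most lists of other non-neuronal cells were lower too, and the part of any of them in these differences was not tested.

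**Figure D3:**
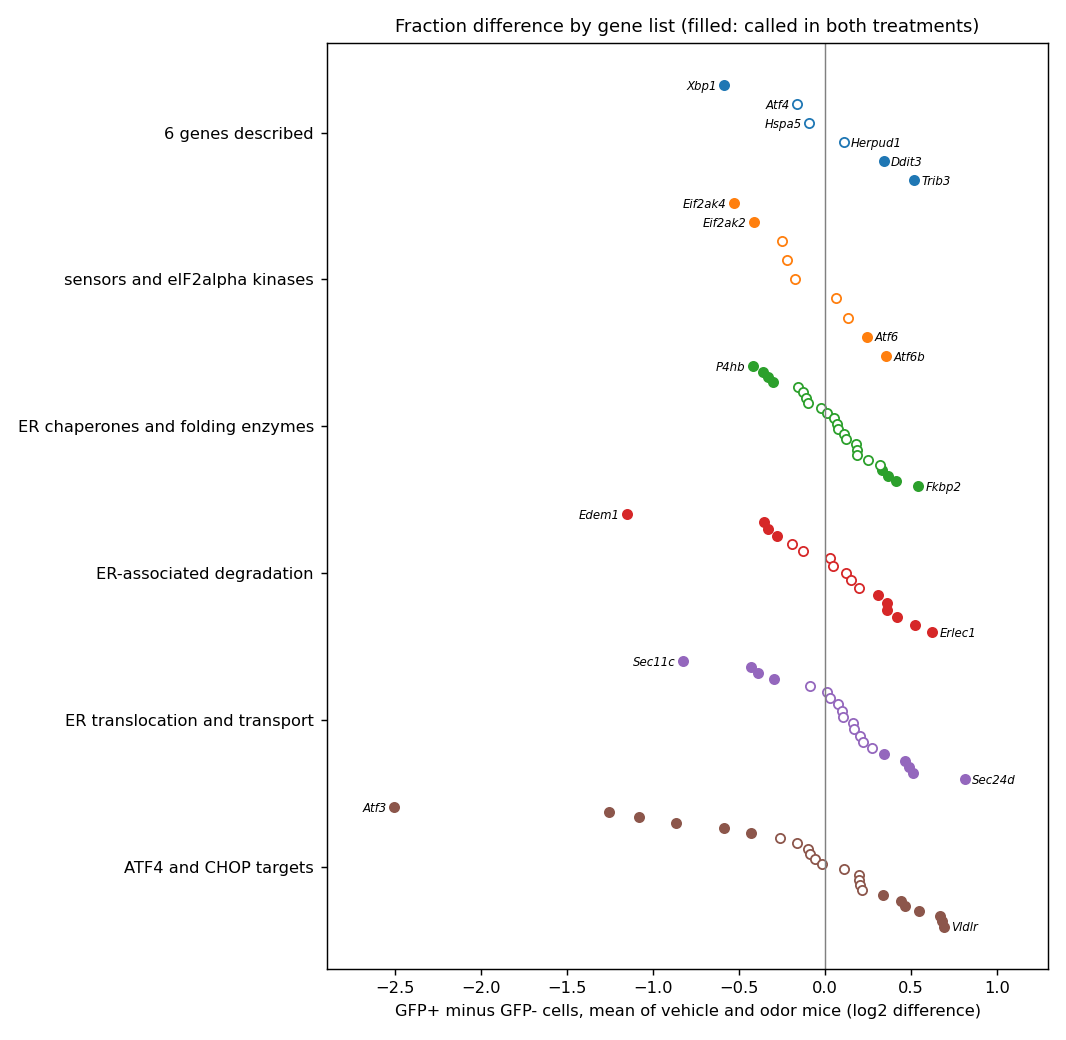
Each point is 1 gene, placed by its GFP+ minus GFP- difference averaged over vehicle and odor mice (log2, horizontal axis) and ordered within its list, filled where it passed in the same direction in both treatments. Every list spreads to both sides of 0, and Atf3 with vehicle and odor differences of -2.54 and -2.47 lies farthest out.

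Genes counted as targets of ATF4 and CHOP held the widest differences. For vehicle 9 of 24 went up and 7 down, for odor 8 up and 7 down, with medians of 0.03 and 0.13. Atf3, a stress-induced transcription factor of the same family as ATF4, lay between 7.71 and 8.01 on GFP+ arrays and between 9.66 and 10.9 on GFP- arrays. Its GFP+ level was 0.171 times the GFP- level in vehicle mice (95% interval 0.127 to 0.231, adjusted p 9.0e-06 in limma) and 0.180 times in odor mice (0.134 to 0.243, adjusted p 9.6e-06). Slc7a11, the cystine transporter, differed by -1.28 and -1.24, but its GFP+ values of 5.26 to 5.65 lay under the lower quartile of each of those arrays, so that the size is uncertain. The stress-induced Nupr1 differed by -1.18 and -0.98, Cebpb by -0.88 and -0.86, and 2 enzymes of serine synthesis, Psat1 (-0.47 and -0.71) and Phgdh (-0.46 and -0.41), were lower, while the third, Psph, was higher (0.36 and 0.32).

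On the higher side stood Atf5, the factor of the PERK branch that olfactory neurons are known to use. Its values were 12.2 to 12.3 on GFP+ arrays and 11.7 to 12.1 on GFP- arrays, without overlap, and its differences of 0.43 and 0.45 (SE 0.09; limma, adjusted p 0.00360 and 0.00288) were positive in 6 of 6 pools. Vldlr, a lipoprotein receptor, was higher by 0.74 and 0.65, Aldh18a1, of proline synthesis, by 0.71 and 0.64, and Pck2, a mitochondrial enzyme that makes phosphoenolpyruvate, by 0.66 and 0.71. Cebpg, a dimer partner of ATF4, was higher by 0.52 and 0.58 and the amino acid transporter Slc7a5 by 0.45 and 0.48. Ppp1r15a and Chac1 did not pass as deposited. Ppp1r15a (GADD34), which brings phosphatase to eIF2alpha, differed by 0.23 (adjusted p 0.137) and 0.16 (adjusted p 0.263) and was called in 1 of the 8 values from 4 scalings and 2 treatments. Chac1 differed by -0.17 (adjusted p 0.0921) and 0.13 (adjusted p 0.166) and was called in 2 of its 8 values.

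Immune marker genes moved with the genes that were lower, as did most lists of other non-neuronal cells. The neutrophil list lay between 7.12 and 8.29 on GFP+ arrays and between 11.5 and 12.1 on GFP- arrays, with medians of -4.43 and -4.19 over its 11 genes, and the macrophage list had medians of -2.04 and -2.46 over its 10. Medians were -1.82 and -2.14 for dividing and globose basal cells, -1.84 and -1.81 for sustentacular cells and -0.88 and -0.79 for Bowman's glands. The list of respiratory ciliated cells was higher (0.62 and 0.73). The part of immune and other cells in the differences of Atf3, Cebpb, Nupr1 and Slc7a11 was not tested. Mature neuron genes, with medians of 0.45 and 0.48, moved with Atf5, Trib3 and the others that were higher, and their part was likewise not tested.

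**Figure D4:**
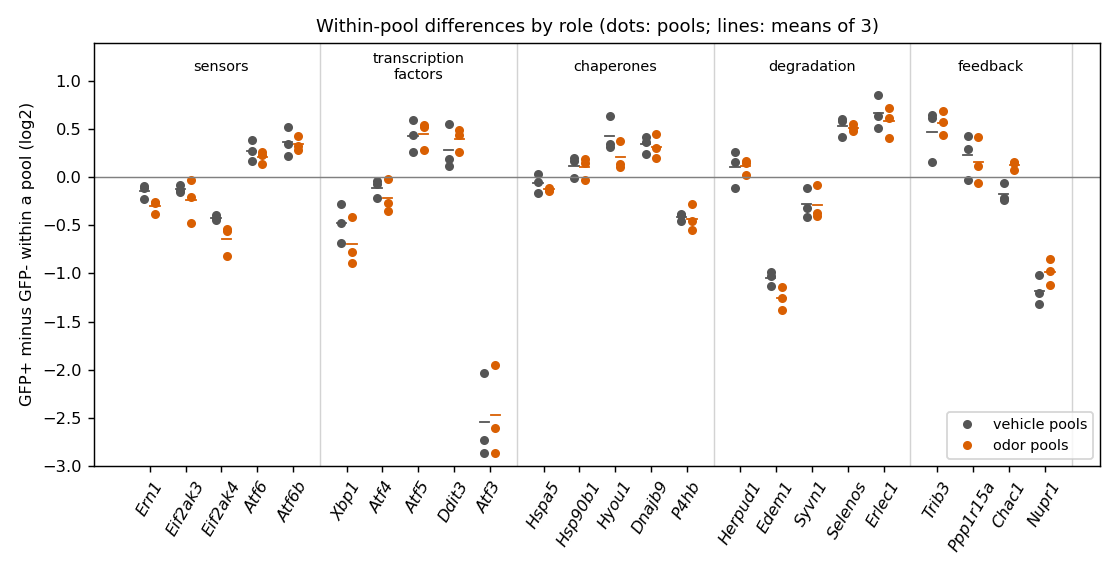
GFP+ minus GFP- difference within each pool (log2, vertical axis) for 24 genes arranged by role, vehicle pools grey, odor pools orange, with short lines at the mean of 3 pools. Within the transcription factors Atf5 and Ddit3 lie above 0 in all 6 pools and Xbp1, Atf4 and Atf3 below, and among feedback genes Trib3 lies above 0 and Nupr1 below in all 6.

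Set against the promoter letters, the 10 genes on these lists or among the 6 with an ER stress response element (Hspa5, Hsp90b1, Calr, Canx, Creld2, Dnajc3, Pdia6, Ero1b, Derl3 and Syvn1) had 0 higher and 4 lower in each treatment, with median differences of -0.09 and -0.15. Among 6 genes with the TGACGTGG core (Sec24d, Vcp, Txndc11, Txndc5, Kdelr3 and Ube2j1), 3 rose and 0 fell for vehicle, 2 rose and 1 fell for odor. Among 6 with the TGATGCAA core (Herpud1, Atf3, Chac1, Nupr1, Slc7a11 and Vldlr), 1 was higher and 3 lower in each. Promoters were matched for 77 of the 94 genes, and 9 of their 92 promoters (9.78%) held the ER stress response element. Over all genes the calls were 29.7% upward and 18.1% downward for vehicle, 32.9% upward and 18.5% downward for odor, with medians of 0.06 and 0.13. The motif counts cover few genes and were given no test.

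The 6 genes did not rise and fall as 1 group across arrays. As a description over 12 arrays that share fractions and pools, the genes with the most similar pattern were Ptgr1 for Xbp1 (r = 0.983), Afdn for Ddit3 (0.981), Smarcd1 for Trib3 (0.965), Trip13 for Atf4 (0.955), Mfap3l for Hspa5 (0.946) and Atpif1 for Herpud1 (0.943). After group means were taken off, Herpud1 followed Gtpbp2 most closely (0.992), Ddit3 followed Cetn2 (0.978), Trib3 followed Hdhd5 (0.961) and Xbp1 followed Timeless (0.959). Atf4 then followed Pmf1 (0.954) and Hspa5 followed Cd2bp2 (0.939). Each of these r is the highest of a search over all genes but predicted ones, so that none was another of the 6 says little. Between pairs of the 6, r over the 12 arrays ran from -0.93 (Xbp1 and Ddit3) to 0.84 (Xbp1 and Atf4). Within groups the pairs Xbp1 and Atf4 (0.65) and Trib3 and Herpud1 (0.59) had the highest positive r among the 6, and Xbp1 and Ddit3 the lowest (-0.64).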

How the data were processed

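Each array's log2 values, 1 per probe set, were used as deposited; Affymetrix Expression Console is the software named for them in the submitters' processing notes. Not given in the sources used here: its version, the summarization method, background correction and scaling between arrays. Values ran from 2.42 to 14.1 and array medians from 7.04 to 7.20. Arrays give no counts, so their number limits the precision. There were 12 arrays and 0 columns from elsewhere.

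The annotation gave 1 gene symbol for 21789 of 35556 probe sets, several for 1621 and none for 12146. Those with 1 symbol were kept (21698 of their gene identifiers were in the RefSeq gene table, 91 were not), and the probe set with the highest mean stood for its gene, which left 19938 genes with no filter on low values. Promoters and coordinates are from RefSeq on GRCm38.p6.

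Moderated two-sided tests were run in limma 3.58.1 (R 4.3.3), with Benjamini-Hochberg adjustment over all genes and calls under 0.05. Odor and vehicle were compared in a fit of the 4 groups. Fractions and the interaction had the 6 pools as a replicate block, since both fractions of a pool come from the same mice (correlation of their deviations from group means 0.0732 to 0.252). The replicates are pools of 3 mice each. The number in the sample code, whose meaning no label states, gave correlations between treatments of 0.309, 0.185 and 0.268 in GFP+ and 0.439, -0.206 and 0.281 in GFP- cells. Alternatives were dropping the 25% of genes with the lowest mean, 3 other scalings, means of probe sets, array weights, other blocks, separate fits and leaving out each replicate. The code-number block within 1 fraction was added after seeing the data. Tests were checked on simulated data. Python 3.11.15 with matplotlib 3.10.9 made the figures.

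The 6 genes and the lists were chosen with earlier results of these data known. Named were, per list and comparison, up to 4 called genes with the largest difference or, where none was called, the 2 with the smallest p; the 2 markers per list with the largest fraction difference; Omp and S100a5; and the 3 genes of highest r with each of the 6, of which the first is given. Chosen after their values were seen were Ern1, Eif2ak3, Dnajb9, Ero1a, Ero1b, Pdia6, Hsp90b1, Derl3, Syvn1, Vcp, Ubxn4, Phgdh, Atf5, Vldlr, Aldh18a1, Pck2, Cebpg, Slc7a5, Ppp1r15a, Spcs2, Spcs3, Kdelr1, Sec61b, Dnajc10, Pdia3, Txndc5, Jchain, Irf4, Pou2af1, Mzb1, Sdc1, Tnfrsf17 and the genes given by promoter motif.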

Additional observations from a re-analysis of the deposited data

Results flagged for a closer look

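Chac1, a gene for a glutathione-degrading enzyme induced by ATF4 and CHOP, stood out because its fraction difference had opposite signs in the treatments. It was 0.15, 0.16 and 0.08 in the odor pools and -0.06, -0.22 and -0.23 in the vehicle pools (log2, GFP+ minus GFP-). The interaction was 0.30 (SE 0.10) with an unadjusted p of 0.0188 and an adjusted p of 0.917 in limma, so it did not pass. Of all genes 4.67% had an unadjusted interaction p under 0.05. Neither fraction difference of Chac1 passed by itself as deposited. Over 4 scalings and 2 treatments the fraction difference of Chac1 was called in 2 of 8 values, which ran from -0.26 to 0.20. GFP- values averaged 7.74 ± 0.14 in odor and 7.99 ± 0.12 in vehicle mice, and GFP+ values 7.87 ± 0.17 and 7.82 ± 0.03 (SD, n = 3).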

How the results depend on the processing

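Among the 6 genes 0 were called for odor against vehicle in each of 17 alternatives per fraction and for the interaction in each of 13. The blocks by code number, by title number and by random pool changed none of these calls. The count called between fractions in vehicle mice was 3 and ran from 1 to 3 when each pool was left out (1 without vehicle pool 4). In odor mice it was 3, became 5 with a second quantile normalization and ran from 2 to 4 with a pool left out. Without the pool as a replicate block Atf4 passed in odor mice (adjusted p 0.0473), and no other call among the 6 changed. Of the 94 other genes, 32 higher in vehicle mice became 18 with cyclic loess and 20 to 32 with a pool left out. The 21 lower became 33 with cyclic loess, 12 with median centring and 13 to 21 with a pool left out (13 without vehicle pool 1, 20 higher without vehicle pool 4). The cause of these changes was not tested.

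Signs turned for differences near 0 that were called neither before nor after. Odor against vehicle in GFP+ cells turned for Ddit3 (0.0016) to -0.023 with median centring and ran from -0.030 to 0.037 with an array left out, and for Herpud1 (0.02) to -0.0042 with centring and -0.0010 with array weights, and ran from -0.037 to 0.10. In GFP- cells Hspa5 (0.02) turned to -0.025 with quantile, -0.0050 with array weights and -0.0016 with the replicate block by title number, and ran from -0.0022 to 0.047 with an array left out. Atf4 (0.04) turned to -0.011 with that block. Herpud1 (0.01) turned to -0.024 with quantile and -0.0011 with loess and ran from -0.058 to 0.11, and Trib3 (0.12) ran from -0.086 to 0.24. Between fractions Hspa5 turned to 0.024 with quantile and 0.043 with centring in vehicle mice and to 0.0053 with quantile in odor mice, and Herpud1 to -0.030 and -0.0052 with loess. In the interaction Herpud1 (0.01) turned to -0.048 with centring and -0.035 with array weights and ran from -0.096 to 0.089 with a pool left out, and Trib3 (0.10) ran from -0.061 to 0.18.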
